A study of Mus musculus with 30 samples.

Results

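The 9 genes described here encode the machinery that receives interferon signals at the surface of a mouse dendritic cell and carries them to the nucleus. They are the type I interferon receptor chains Ifnar1 and Ifnar2, the interferon gamma receptor chains Ifngr1 and Ifngr2, the kinases Jak1, Jak2 and Tyk2, and the transcription factor subunits Stat2 and Irf9. They were taken by symbol, as the 9 rows of these names among the 25611 gene rows of the count table. All 9 passed the filter on low counts that left 14808 genes for testing, with 1140 to 50202 counts per gene and library.

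RNA was sequenced from dendritic cells differentiated out of mouse bone marrow over 6 to 7 days in medium with FLT3L at 200 ng/ml, a growth factor that yields both conventional and plasmacytoid dendritic cells. Cells labelled Rubcn KO (KO below) were compared with wild type cells (WT), and Rubcn encodes Rubicon, a protein of a non-canonical autophagy pathway that acts on phagosomes. Cells of either genotype were left untreated, were given OVA (ovalbumin protein) for 30 min or 4 h, or were given apoptotic Jurkat cells for 30 min or 4 h. Jurkat is a human line of leukaemic T cells. With 3 libraries per group, the 10 groups made up 30 libraries. The labels give no strain, age or sex, do not describe the Rubcn allele, and do not say whether replicates came from separate mice or cultures, so that p-values measure only the spread between these libraries, which may be technical.

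As background, type I interferons bind a receptor of 2 chains, IFNAR1, which carries the kinase TYK2, and IFNAR2, which carries JAK1. The activated kinases phosphorylate STAT proteins, and STAT2 joins another STAT protein and IRF9 to form ISGF3, the factor that binds interferon-stimulated response elements (ISREs) in the promoters of antiviral genes. Interferon gamma uses IFNGR1, which carries JAK1, and IFNGR2, which carries JAK2, and acts through a STAT dimer that binds gamma-activated sites (GAS). Dendritic cells both make type I interferon and respond to it, and several genes of the pathway, Stat2 and Irf9 among them, are themselves interferon-stimulated genes.

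Library totals lay between 9.73 M and 51.6 M counts (median 44.9 M), and apart from the shallowest (KO, OVA 30 min, replicate 3) none was below 38.7 M. Rubcn itself was lower in KO in each condition without overlap of libraries, with log2 fold changes of -0.44 to -0.24, so most of its counts remained in KO, and gene-level counts do not show which exons were read. KO replicate 2 of Jurkat 4 h stood apart from its group: 3.90% of its counts fell on Rn45s, the ribosomal RNA precursor (named after its values were seen), against 0.0949% to 0.384% in the other 29 libraries. The dendritic cell list (Flt3, Itgax, Zbtb46, Cd74 and H2-Ab1) summed to 13639 to 27335 CPM per library, where CPM is counts per 1 M counts of the TMM-scaled library. Cd74 and H2-Ab1 made up most of this sum. Cd74 lay at 8369 to 10427 CPM without Jurkat cells and at 15779 to 17734 CPM after Jurkat 4 h, and H2-Ab1 and Zbtb46 were also higher then. Flt3 went the other way (484 to 582 and 228 to 249 CPM), as did Itgax (426 to 533 and 316 to 421 CPM). Of 6 plasmacytoid dendritic cell markers, 4 were lower and none higher in KO on the average of the 5 conditions (18.7% of all genes lower). All 5 basophil and mast cell markers and 5 of 6 stromal markers were higher (17.7% of all genes). Untreated sums of type 1 conventional dendritic cell markers were 2527 to 2601 CPM in KO and 2664 to 2760 CPM in WT. For type 2 markers they were 1655 to 1788 and 1573 to 1627 CPM. Untreated sums of the dendritic cell, monocyte, neutrophil and B cell lists overlapped between genotypes.

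The promoters of 4 genes on which the results below turn are shown first, Stat2 and Irf9 as the subunits that differed most between genotypes, and Ifnar1 and Ifnar2 as the 2 chains of 1 receptor. Each runs from 250 bases before to 50 bases after the start of transcription, 5′ to 3′ on the gene's strand, from RefSeq on GRCm38.p6, the assembly that mm10 names, and all 9 genes were matched by symbol. Capitals mark a match to the ISRE core, which is GAAA, any 2 bases and GAAA, or to the GAS letters TTCNNNGAA, searched on both strands.
Stat2: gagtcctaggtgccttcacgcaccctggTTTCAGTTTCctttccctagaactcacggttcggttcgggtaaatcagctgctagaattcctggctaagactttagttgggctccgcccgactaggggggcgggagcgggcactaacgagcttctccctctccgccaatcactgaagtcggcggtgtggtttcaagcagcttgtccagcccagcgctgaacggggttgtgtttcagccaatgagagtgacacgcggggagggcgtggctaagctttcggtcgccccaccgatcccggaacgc
Irf9: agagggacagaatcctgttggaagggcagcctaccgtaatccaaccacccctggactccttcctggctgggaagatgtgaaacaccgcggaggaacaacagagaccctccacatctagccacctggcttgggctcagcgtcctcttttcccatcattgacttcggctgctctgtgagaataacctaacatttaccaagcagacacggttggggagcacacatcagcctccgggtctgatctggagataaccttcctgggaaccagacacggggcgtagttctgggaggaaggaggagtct
Ifnar1: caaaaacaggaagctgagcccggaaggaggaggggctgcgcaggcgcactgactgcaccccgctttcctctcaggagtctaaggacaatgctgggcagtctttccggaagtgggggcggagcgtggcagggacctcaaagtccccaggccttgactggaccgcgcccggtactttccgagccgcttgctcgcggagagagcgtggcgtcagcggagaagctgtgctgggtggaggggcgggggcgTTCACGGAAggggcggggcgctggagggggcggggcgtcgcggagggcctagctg
Ifnar2: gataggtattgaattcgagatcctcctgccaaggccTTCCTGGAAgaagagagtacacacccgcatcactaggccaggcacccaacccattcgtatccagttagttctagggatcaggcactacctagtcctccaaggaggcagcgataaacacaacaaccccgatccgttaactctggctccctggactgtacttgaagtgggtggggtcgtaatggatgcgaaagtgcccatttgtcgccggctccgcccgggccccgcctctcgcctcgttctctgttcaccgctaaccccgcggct
The Stat2 promoter (chr10:128270248-128270547, + strand) held 1 ISRE core, TTTCAGTTTC, which starts 222 bases before the start of transcription. The Ifnar1 promoter (chr16:91484965-91485264, + strand) held 1 GAS match that starts 5 bases before the start of transcription, and the Ifnar2 promoter (chr16:91372533-91372832, + strand) held 1 that starts 214 bases before it. The Irf9 window shown (chr14:55603735-55604034, + strand) and a second listed start held neither set of letters, nor did the windows of Ifngr1, Ifngr2, Jak1, Jak2 and Tyk2, and none of the 9 genes held both. Of all 32851 listed promoters, 3.44% held the ISRE core and 8.30% the GAS letters, and of the 27025 genes with a listed promoter 3.99% and 9.55% held them at any listed start. Of the genes with a listed promoter, 8 of 15 listed targets of ISGF3 and 5 of 8 listed targets of interferon gamma held the ISRE core, and 3 of 15 and 4 of 8 held the GAS letters. A match is a description of letters in this window and does not show binding.

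The levels of the 9 genes in every library are plotted by condition and genotype.

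**Figure D1:**
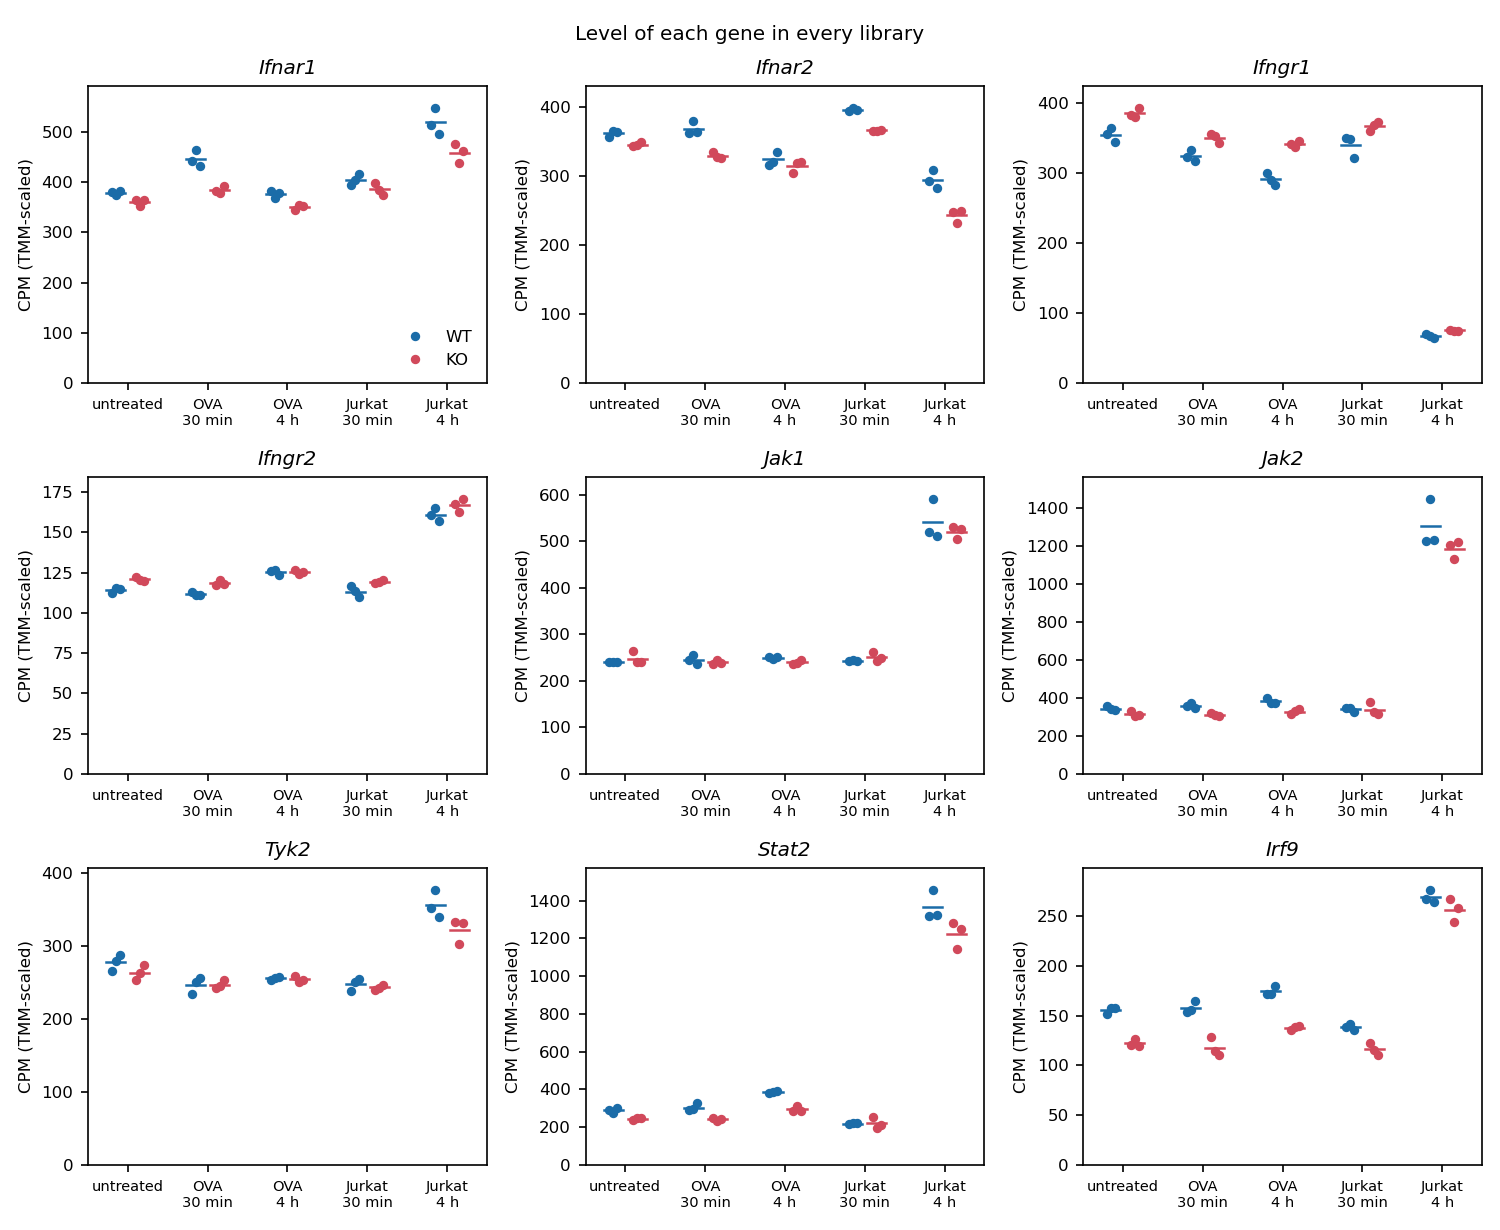
TMM-scaled CPM (linear axis from 0) of each of the 9 genes by condition, with each library as a point (3 per group), the group mean as a bar, WT in blue and KO in red. The Jurkat 4 h groups stand apart for Jak1, Jak2, Tyk2, Stat2, Irf9 and Ifngr2 (higher) and Ifngr1 (lower). WT libraries lie above KO libraries for Irf9 in all conditions other than Jurkat 4 h.

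The first question was whether the receptors, kinases and factor subunits were expressed at another level in the cells labelled Rubcn KO, in which most Rubcn counts remained. In untreated cells 3 of the 9 genes were called (edgeR quasi-likelihood test, FDR under 0.05, where FDR is the Benjamini-Hochberg adjusted p across the whole table), against 9.97% of all genes tested: Irf9 and Stat2 were lower and Ifngr1 was higher in KO. The numbers called were 6 after OVA 30 min (12.4% of all genes), 4 after OVA 4 h (12.6%), 2 after Jurkat 30 min (9.25%) and 4 after Jurkat 4 h (22.9%). On the average of the 5 conditions 8 of the 9 were called, 6 lower in KO (18.7% of all genes) and 2 higher (17.7%), with 36.4% of all genes called in either direction. Most of these differences were small: the average log2 fold changes ran from -0.29 for Irf9 to 0.15 for Ifngr1, with a median of -0.13 against -0.01 over all genes. Separation of all KO from all WT libraries was common. It held for 24.8% of all genes in untreated cells and 28.7% and 33.2% after OVA 30 min and 4 h. After Jurkat 30 min and 4 h it held for 26% and 36.5%. Of the 9 genes it held for 7, 7, 6, 4 and 6 in these 5 conditions. In bulk libraries, fewer cells of a type and less RNA per cell cannot be told apart.

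Irf9, the DNA-binding subunit of ISGF3, differed most. Untreated KO libraries held 121, 126 and 119 CPM (replicates 1 to 3), and untreated WT libraries 152, 158 and 158 CPM. Every KO library lay below every WT library, and the log2 fold change was -0.35 (SE 0.0456, FDR 4.15e-06, edgeR). The same separation was present after OVA 30 min, with 128, 115 and 110.0 CPM in KO against 153, 155 and 165 CPM in WT. After OVA 4 h KO libraries held 135, 139 and 139 CPM and WT libraries 172, 172 and 179 CPM, and after Jurkat 30 min the levels were 123, 115 and 111 CPM in KO and 138, 142 and 135 CPM in WT. KO against WT was -0.42, -0.34 and -0.25 on the log2 scale in these 3 conditions, each called by edgeR with an FDR between 4.93e-07 and 0.000515. After Jurkat 4 h the genotypes overlapped, at 267, 244 and 258 CPM in KO and 267, 276 and 264 CPM in WT, and Irf9 was not called (log2 fold change -0.07, SE 0.0452, FDR 0.289, edgeR).

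Stat2, the subunit that brings the activation domain to ISGF3, was also lower in KO in 3 conditions. Untreated libraries held 239, 249.7 and 250.3 CPM in KO and 289, 278 and 301 CPM in WT, with no overlap (log2 fold change -0.23, SE 0.0662, FDR 0.0224, edgeR). That call was lost without KO replicate 1 or 2 or WT replicate 1 or 3 (FDR 0.0503 to 0.101), at log2 fold changes of -0.24 to -0.20. After OVA 30 min the levels were 251, 231 and 246 CPM in KO against 292, 294 and 326 CPM in WT (log2 fold change -0.33, FDR 0.00139, edgeR). After OVA 4 h they were 287, 313 and 287 CPM in KO against 380.1, 386 and 391 CPM in WT (log2 fold change -0.38, FDR 0.000141, edgeR), the widest gap between genotypes for this gene.

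In the Jurkat conditions Stat2 was not called by edgeR. The change of its genotype difference from untreated cells was not called in either of them. After Jurkat 30 min KO libraries held 257, 195 and 211 CPM and WT libraries 216, 221 and 220.0 CPM, so that KO replicate 1 lay above all WT libraries and the other KO libraries below them. The log2 fold change was 0.01 (SE 0.0664, FDR 0.941, edgeR), and -0.11 (FDR 0.269) without that library. After Jurkat 4 h the levels were 1281, 1145 and 1249 CPM in KO and 1317, 1456 and 1326 CPM in WT, without overlap but not called (log2 fold change -0.16, SE 0.0655, FDR 0.0817 with edgeR and 0.0415 with DESeq2).

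Among the receptor chains, both chains of the type I receptor were lower in KO on the average of the 5 conditions, at log2 fold changes of -0.13 (SE 0.0171, FDR 7.39e-07, edgeR) for Ifnar1 and -0.13 (SE 0.0159, FDR 1.08e-07) for Ifnar2. Ifnar1 was called in 2 conditions. After OVA 30 min it stood at 382, 379 and 393 CPM in KO and 442, 463 and 433 CPM in WT (log2 fold change -0.21, FDR 0.000364, edgeR), and after Jurkat 4 h at 476, 439 and 462 CPM in KO and 514, 548 and 495 CPM in WT (-0.18, FDR 0.00115). Both conditions showed no overlap between genotypes, as did untreated cells and OVA 4 h, where the log2 fold changes of -0.07 and -0.10 were not called. In these last 2, 24.8% and 33.2% of all genes did not overlap. Ifnar2, the chain that binds type I interferon most tightly, was called in 3 conditions. Its widest gap followed Jurkat 4 h, with 247, 232 and 249.9 CPM in KO and 292, 309 and 282 CPM in WT (log2 fold change -0.28, SE 0.0357, FDR 3.08e-06, edgeR). After OVA 30 min the log2 fold change was -0.16 (FDR 0.00262), and after Jurkat 30 min -0.11 (FDR 0.0394), a call that was lost when any 1 of the 6 libraries was left out (FDR 0.0774 to 0.126).

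The interferon gamma receptor went the other way. Ifngr1, the ligand-binding chain, was higher in KO in every condition, and 4 of the 5 differences were called. Untreated libraries held 383, 380.4 and 393 CPM in KO and 357, 365 and 345 CPM in WT, without overlap (log2 fold change 0.12, SE 0.0367, FDR 0.0385, edgeR). That call and the one after OVA 30 min (0.12, FDR 0.0385) were lost without any 1 of several libraries, KO and WT alike (FDR 0.0637 to 0.173). After OVA 4 h the gap was wider, at 342, 338 and 346 CPM in KO against 300.02, 289.7 and 284 CPM in WT (log2 fold change 0.23, SE 0.0368, FDR 4.31e-05, edgeR). After Jurkat 4 h the levels were 76.5, 74.4 and 74.9 CPM in KO against 70.8, 67.7 and 65.0 CPM in WT (0.15, FDR 0.00552), and after Jurkat 30 min the log2 fold change was 0.11 (FDR 0.0606 with edgeR and 0.0293 with DESeq2). Ifngr2, the signalling chain of the same receptor, was not called in any single condition (log2 fold changes -0.00 to 0.08) and was called only on the average (0.06, SE 0.0132, FDR 0.000694, edgeR).

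Ifnar1, Ifnar2 and Ifngr2 lie in 1 cluster on mouse chromosome 16 (mm10, 91372783 to 91564007), 58.5 to 58.7 Mb from Rubcn on the same chromosome, whereas Ifngr1 and Stat2 lie on chromosome 10 and Irf9 on chromosome 14. Of 12 genes listed as neighbours of the receptor cluster, 11 were tested, and 3 were higher and 5 lower in KO on the average (17.7% and 18.7% of all genes), with a median log2 fold change of -0.01. With total counts 3 were higher and 2 lower, and with DESeq2 size factors 2 were higher and 5 lower. Those with the smallest p were Itsn1 (-0.21), which encodes an endocytic scaffold, Paxbp1 (-0.13) and Tmem50b (0.06). Whether sequence linked to the Rubcn allele differs between the genotypes at the receptor cluster was not tested.

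Of the kinases, Jak2 was called in 2 conditions, Tyk2 in 1 and Jak1 in none. Jak2, the kinase carried by IFNGR2, was lower in KO after OVA 30 min, at 321, 309.5 and 308 CPM against 358, 373 and 346 CPM in WT (log2 fold change -0.20, SE 0.0597, FDR 0.0286, edgeR). After OVA 4 h it held 317, 329.7 and 341 CPM in KO and 401, 372 and 374 CPM in WT (-0.22, SE 0.0593, FDR 0.0140). Genotypes did not overlap in either condition, but the first call was lost without KO replicate 2 or 3 or WT replicate 1 or 2 (FDR 0.0613 to 0.130), and the second without KO or WT replicate 1 (FDR 0.0873 and 0.0976). Tyk2, the kinase of IFNAR1, was called after Jurkat 4 h at 333, 302 and 331 CPM in KO and 352, 377 and 339 CPM in WT (log2 fold change -0.14, SE 0.0437, FDR 0.0165, edgeR), and the call was lost without KO or WT replicate 2 (-0.10 in both cases, FDR 0.132 and 0.135). Jak1 serves both receptors, and its average log2 fold change was -0.01, with a 95% interval of -0.05 to 0.03.

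The differences between the genotypes are plotted for each gene and condition.

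**Figure D2:**
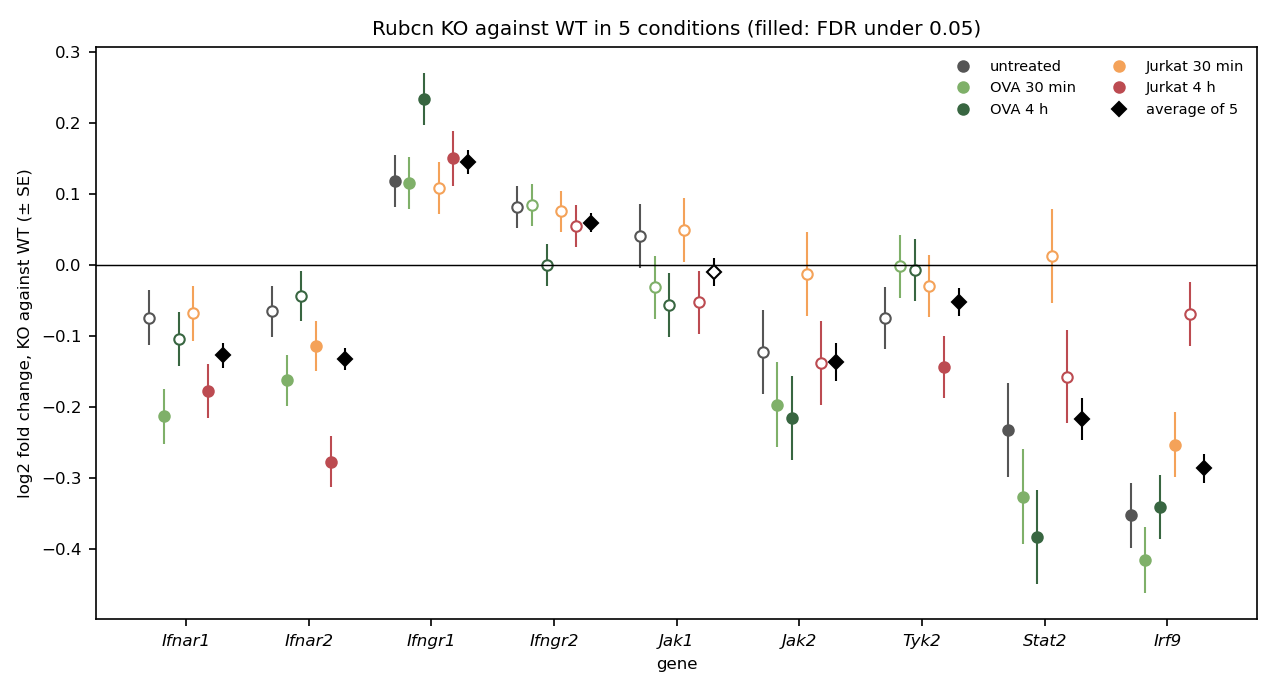
Log2 fold change of KO against WT (linear axis, error bars ± SE from the edgeR fit, 3 KO and 3 WT libraries per condition) for the 9 genes in 5 conditions, with the average of the conditions as a diamond and filled symbols at an FDR under 0.05. Irf9 lies lowest on the average at -0.29 and Ifngr1 highest at 0.15, and for Irf9 and Stat2 the values after OVA 4 h are -0.34 and -0.38.

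The second question was how the 9 genes differed between treated and untreated cells. The labels give no time for untreated cells, so in these contrasts treatment cannot be told apart from time and handling. After apoptotic Jurkat cells for 4 h every gene was called in both genotypes with TMM scaling. With total counts Ifnar1 and Tyk2 were not called, as given below. In WT 7 of the 9 were higher (38.9% of all genes) and 2 lower (40.6% of all genes), and 9 of 9 were also called in KO. These counts stand against 79.5% of all genes called in WT and 78.5% in KO in this contrast, so the number called is near the background and the sizes carry the description. Treated and untreated libraries did not overlap for 79.4% of all genes in WT and 79% in KO. For the other treatments described below this share was 22.2% to 38.4%. Rises were led by Stat2 and Jak2, and the largest fall was that of Ifngr1.

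Stat2 rose from 289, 278 and 301 CPM in untreated WT libraries to 1317, 1456 and 1326 CPM, and from 239, 249.7 and 250.3 CPM to 1281, 1145 and 1249 CPM in KO. The log2 fold changes were 2.24 (SE 0.0688, 4.73-fold) in WT and 2.31 (SE 0.0690, 4.98-fold) in KO, with edgeR FDRs of 2.73e-22 and 1.54e-22. Jak2 rose from 359, 340.3 and 336 CPM to 1230.3, 1450.0 and 1236 CPM in WT, and from 329.7, 307 and 314 CPM to 1205, 1132 and 1221 CPM in KO. Its log2 fold changes were 1.92 in WT and 1.90 in KO, and for both genes the treated libraries lay far above all untreated ones. Jak1 rose from 242, 240.3 and 242 CPM to 520.0, 591 and 511 CPM in WT (log2 fold change 1.16) and by 1.07 in KO. Irf9 rose by 0.79 in WT and by 1.07 in KO on the log2 scale, starting from the lower untreated level of the KO cells.

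Ifngr1 fell from 357, 365 and 345 CPM to 70.8, 67.7 and 65.0 CPM in WT, and from 383, 380.4 and 393 CPM to 76.5, 74.4 and 74.9 CPM in KO. It thereby fell by 80.9% in WT and by 80.5% in KO (log2 fold changes -2.39 and -2.36, edgeR FDR 2.76e-28 and 4.62e-28). With TMM scaling the chains of each receptor moved in opposite directions. Ifngr2 rose by 0.49 in WT and 0.47 in KO on the log2 scale. Ifnar1 rose by 0.45 and 0.35, a rise not called with total counts, while Ifnar2 fell by 0.30 and 0.51. Ifnar2 went from 356, 366 and 363 CPM to 292, 309 and 282 CPM in WT, and from 343, 344 and 349 CPM to 247, 232 and 249.9 CPM in KO, without overlap. Tyk2 rose by 0.36 in WT and 0.29 in KO.

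The sizes depended on scaling, and for Ifnar1 and Tyk2 the calls did. Libraries of Jurkat 4 h had TMM factors of 0.765 to 0.842, against 1.03 to 1.07 in the others, and scaling to total counts moves the median log2 fold change of all genes to -0.42 in WT and -0.37 in KO. On that scale 3570 genes were higher and 8757 lower in WT, against 5761 higher and 6017 lower with TMM. Tyk2 was then at -0.05 in both genotypes (FDR 0.304 and 0.256) and Ifnar1 at 0.05 and 0.01 (FDR 0.196 and 0.783), whereas the other 7 genes kept their direction and call. The rise of Ifngr2 became 0.09 in WT and 0.13 in KO, that of Irf9 0.38 and 0.73, and that of Jak1 0.76 and 0.73, and the fall of Ifnar2 became -0.70 and -0.85. Counts of some T-lineage genes were also higher in these libraries. For 11 of 22 T-lineage genes below 1 CPM in untreated cells, the summed level was 2.45 ± 0.0858 CPM (SD, n = 3) in untreated WT, 39.4 ± 0.662 CPM after Jurkat 30 min and 103 ± 16.02 CPM after Jurkat 4 h. In KO the same sums were 3.01 ± 0.542, 24.4 ± 5.59 and 70.2 ± 9.37 CPM. Cd3e and Bcl11b, both T-cell genes, were at 0 in at least 1 library without Jurkat cells and reached 6.70 and 8.44 CPM at 4 h. Not all of the list rose. Cd28 lay at 34.2 to 57.1 CPM without Jurkat cells and at 19.5 to 24.5 CPM at 4 h. Cd5 and Ptcra were also lower at 4 h, and Cd3d stayed at 0.0803 CPM or below. The sum of all 22 was 92.2 ± 3.13 CPM in untreated WT and 238 ± 26.0 CPM after Jurkat 4 h. In KO these sums were 106 ± 4.27 and 187 ± 13.9 CPM. All 6 markers of type 2 conventional dendritic cells were lower in WT after Jurkat 4 h (40.6% of all genes). The part of the 9 genes' counts that came from human RNA was not tested.

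The other treatments moved the genes far less. OVA at 4 h gave 6 calls in WT (23.5% of all genes) and 4 in KO (11.6%). Stat2 rose from 289, 278 and 301 CPM to 380.1, 386 and 391 CPM in WT (log2 fold change 0.42, SE 0.0661, FDR 2.34e-05, edgeR) and from 239, 249.7 and 250.3 CPM to 287, 313 and 287 CPM in KO (0.26, SE 0.0662, FDR 0.00801). In both genotypes the treated libraries lay above all untreated ones, though the KO call was lost without KO OVA replicate 2 (FDR 0.0582). Irf9 rose by 0.16 in WT (FDR 0.0510 without WT OVA replicate 3) and 0.17 in KO (FDR 0.0583 without untreated KO replicate 3). Ifngr1 fell by 0.29 and 0.17 and Ifnar2 by 0.16 and 0.14, the KO call for Ifnar2 being lost without KO OVA replicate 1 (FDR 0.0818). In WT alone Ifngr2 (0.13) and Tyk2 (-0.12) were called as well, without a called difference between the genotypes' responses. The Tyk2 call was lost without any 1 library other than untreated WT replicate 1 (FDR 0.0793 to 0.197).

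At 30 min, OVA gave 3 calls in WT (10.7% of all genes) and 1 in KO (3.77%). Ifnar1 rose in WT from 379.6, 374 and 383 CPM to 442, 463 and 433 CPM (log2 fold change 0.23, SE 0.0382, FDR 0.000149, edgeR), without overlap, while KO went from 364, 353 and 363 CPM to 382, 379 and 393 CPM (0.09, SE 0.0384, FDR 0.188). Ifngr1 fell by 0.13 in both genotypes and Tyk2 by 0.17 in WT. The KO call for Ifngr1 was lost without any 1 library other than KO OVA replicate 1 (FDR 0.0648 to 0.148, the highest without the shallow library). The WT call was lost without WT OVA replicate 1 or 3 or untreated replicate 2 (FDR 0.0658 to 0.110), and the Tyk2 call without WT OVA replicate 1 or untreated replicate 3 (FDR 0.1005 and 0.0736).

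Jurkat cells at 30 min gave 4 calls in WT (28.7% of all genes) and 0 in KO (17% of all genes), where edgeR gave 4 genes an unadjusted p under 0.05 and DESeq2 also called 0. Stat2 fell in WT from 289, 278 and 301 CPM to 216, 221 and 220.0 CPM (log2 fold change -0.40, SE 0.0663, FDR 3.99e-05, edgeR), all treated libraries lying below all untreated ones. In KO its log2 fold change was -0.16 (FDR 0.108), and -0.28 (FDR 0.00139) without KO replicate 1, the library with 257 CPM. In WT Irf9 fell by 0.17 and Tyk2 by 0.16 (FDR 0.0522 without WT Jurkat replicate 1), and Ifnar2 rose by 0.13 on the log2 scale.

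Responses of the 9 genes to the 4 treatments are plotted for both genotypes.

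**Figure D3:**
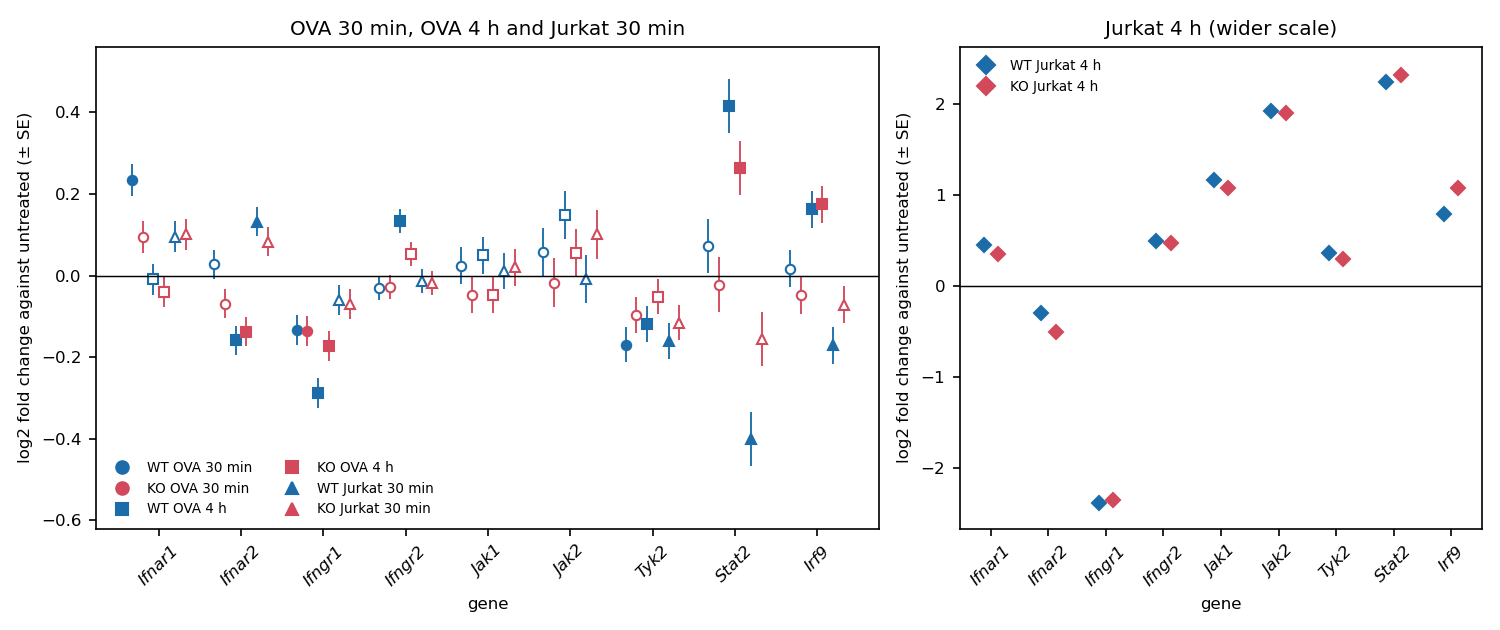
Log2 fold change of each treatment against untreated cells of the same genotype (linear axes, error bars ± SE from the edgeR fit, 3 libraries per group), WT in blue and KO in red, with filled symbols at an FDR under 0.05; at right, Jurkat 4 h on a wider scale. Ifngr1 lies at -2.39 and -2.36 after Jurkat 4 h, and Stat2 in WT lies at 0.42 after OVA 4 h and -0.40 after Jurkat 30 min.

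Whether KO and WT cells responded differently was tested as the difference between the responses. After Jurkat 4 h, 2 of the 9 genes were called, against 4.26% of all genes. Irf9 rose more in KO, with a difference of 0.28 (SE 0.0642, FDR 0.0111, edgeR) between its log2 responses of 1.07 and 0.79. Ifnar2 fell more in KO, with a difference of -0.21 (SE 0.0503, FDR 0.0155) between -0.51 and -0.30. Without KO replicate 2, the library rich in Rn45s, the differences were 0.32 (FDR 0.00848) and -0.18 (FDR 0.0484). The Ifnar2 call was lost without WT Jurkat 4 h replicate 2 (-0.18, FDR 0.0526), with total counts (-0.15, FDR 0.0591) and with the compared groups alone (-0.17, FDR 0.130). No difference was called after OVA 30 min (0% of all genes), OVA 4 h (0.0405%) or Jurkat 30 min (0.00675%). In each of these 3, edgeR gave 1 of the 9 genes an unadjusted p under 0.05, and DESeq2 called 0. For Stat2 after Jurkat 30 min the difference was 0.24 with a 95% interval of 0.05 to 0.44 (FDR 0.540), and 0.12 (FDR 0.887) without KO replicate 1.

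Jurkat cells were also compared with OVA at the same time, with the genotypes averaged. At 4 h all 9 genes were called (82.6% of all genes), with log2 fold changes from -2.14 for Ifngr1 to 1.94 for Stat2, and with total counts Ifngr2 (0.02, FDR 0.311) and Tyk2 (0.04, FDR 0.154) were no longer called. At 30 min 4 were called (29.9% of all genes): Stat2 at -0.30 (SE 0.0471, FDR 1.45e-05, edgeR), Irf9 at -0.11, Ifnar2 at 0.13 and Ifngr1 at 0.07, the last lost under several alternatives.

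Levels were compared between genes only per length, as CPM per kb of annotated exon. In untreated WT cells the order was Ifngr1 at 125 ± 3.65 CPM per kb (SD, n = 3), Ifnar2 at 109 ± 1.55, Jak2 at 68.6 ± 2.39, Ifnar1 at 63.8 ± 0.762 and Stat2 at 48.8 ± 1.90 CPM per kb, followed by Tyk2, Jak1, Ifngr2 and, last, Irf9 at 28.9 ± 0.640 CPM per kb. No 2 neighbours in that order overlapped. After Jurkat 4 h the order in WT was led by Jak2 at 260 ± 24.9 and Stat2 at 231 ± 13.2 CPM per kb, which overlapped each other. Ifngr1 moved from first to last, at 23.8 ± 1.02 CPM per kb. Exon length was the union over all annotated transcripts, which lowers the value of a gene with long exons that these cells do not use. For Irf9 this union was 5386 bases in a gene annotated from 55603571 to 55610030, so most of the locus was counted as exon. The place of Irf9 in the order depends on that length, whether or not its neighbours overlap.

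The wider pathway was described through lists that were chosen with earlier results of these data known. The 20 listed targets of ISGF3, antiviral genes whose promoters it binds, were all lower in KO on the average (median log2 fold change -0.82, against -0.01 over all genes and -0.13 over the 9 genes). Their log2 fold changes ran from -2.54 to -0.36. Those with the smallest p were Ifi44 (-2.54), Oas1a (-1.01), an enzyme that makes the activator of a viral RNA-degrading nuclease, and Bst2, which tethers virions to the cell surface and fell least of the 20 (-0.36). In untreated cells Oas1a stood at 33.5 ± 0.944 CPM in WT (SD, n = 3) and at 14.4 ± 0.987 CPM in KO. Of the 20, 18 were lower in untreated cells, 15 after OVA 30 min, 20 after OVA 4 h, 8 (with 2 higher) after Jurkat 30 min and 11 after Jurkat 4 h. Of all genes, 3.97%, 6.13%, 6.35%, 3.67% and 13.5% were lower in these 5 conditions. On the average and after OVA 4 h all 20 stayed called under every alternative run. The number called ranged from 13 to 20 in untreated cells, from 10 (without KO replicate 2) to 20 after OVA 30 min, and from 9 to 20 (with the compared groups alone) after Jurkat 4 h. After Jurkat 30 min it ranged from 5 with the compared groups alone to 15 without KO replicate 1, all of them lower in both cases. Of 10 listed targets of interferon gamma, 7 were lower and 1 higher on the average, with Irgm1 at -0.46, Igtp at -0.45 and Irf1, a transcription factor, at -0.21. Of all genes, 18.7% were lower and 17.7% higher on the average. These genes moved beside a lower plasmacytoid marker list and higher basophil and stromal lists, whose summed levels were 2532 to 2620 CPM in untreated WT and 2219 to 2407 CPM in KO for plasmacytoid markers, 10.47 to 13.2 and 28.7 to 44.4 CPM for basophil markers, and 537 to 617 and 686 to 862 CPM for stromal markers. The part of these cell types in the differences was not tested.

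The rest of the signalling layer was closer to the 9 genes in size. The counts below stand against 18.7% of all genes lower and 17.7% higher in KO on the average. Among 8 other receptors and kinases of the family, 4 were lower and 1 higher in KO on the average (median -0.04), with Il10ra, a chain of the interleukin-10 receptor, at -0.19, Il2rg, the common gamma chain, at -0.18 and Jak3, the kinase that it carries, at 0.22. With total counts that split was 2 lower and 2 higher. Of 5 other STATs, 2 were lower (Stat5a at -0.08 and Stat5b at -0.07). With DESeq2 size factors 4 of the 5 were lower, and with total counts none was called. Among 14 negative regulators, 5 were lower and 2 higher: Usp18, which blocks the type I receptor at IFNAR2 and is itself interferon-stimulated, was at -0.74, Ptpn6 at -0.14 and Socs3, an inhibitor of JAK kinases, at 0.37. Over all genes, the average contrast gave 2620 higher and 2773 lower with TMM, and 3862 higher and 1565 lower with total counts.

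After Jurkat 4 h in WT all 20 ISGF3 targets rose (median log2 fold change 4.04, against -0.02 over all genes), as did 9 of 10 interferon gamma targets (median 4.43), while 1 fell. Over all genes 38.9% were called higher and 40.6% lower in this contrast, so a call alone was common. Negative regulators rose in 9 of 14 cases and fell in 3, with the smallest p for Socs3 (4.54) and Socs1 (4.72), and with total counts 6 rose and 6 fell. Other STATs rose in 5 of 5 cases (4 rose and 1 fell with total counts), with the smallest p for Stat5a (2.27) and Stat3 (1.53), and 6 of the 8 other receptors and kinases rose, with the smallest p for Il2rg (1.89) and Il21r (1.62). In the difference between the genotypes' Jurkat 4 h responses, 5 of the 20 ISGF3 targets were higher in KO, as Irf9 was. The share of all genes was 1.72%, and the median difference of the 20 was 0.62. Most of the 20 were lower in KO before treatment.

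Gene lists are plotted beside the 9 genes for the 2 contrasts described last.

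**Figure D4:**
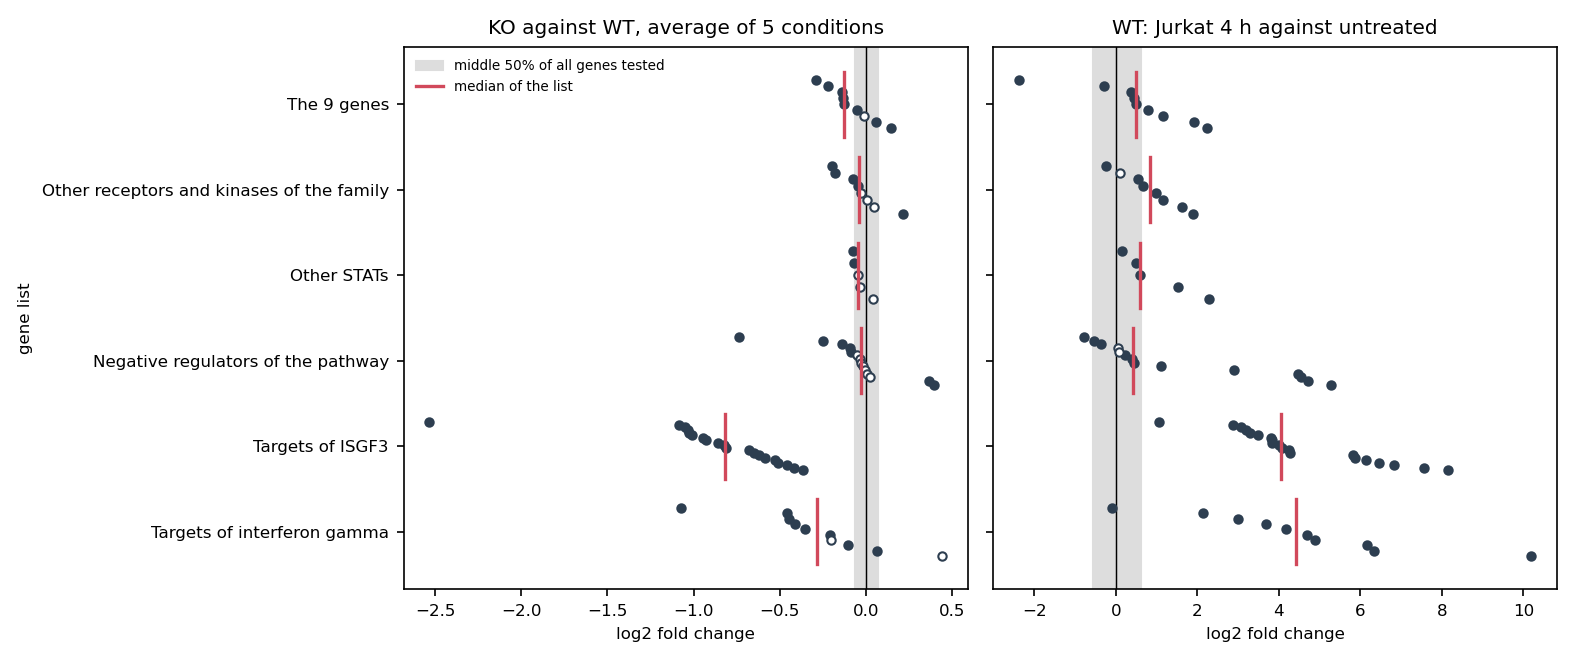
Log2 fold changes (linear axes) of the 9 genes and of 5 related lists, 1 point per gene, filled at an FDR under 0.05, for KO against WT on the average of 5 conditions (left) and for Jurkat 4 h against untreated WT cells (right), with the list median in red and the middle 50% of all genes tested in grey. All 20 ISGF3 targets lie below 0 at left and above 0 at right, with medians of -0.82 and 4.04.

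The genes whose levels followed each of the 9 most closely were sought among 9990 genes of at least 5 CPM, by Pearson's r of log2 CPM over the 30 libraries, which share the 10 groups and in which the 6 Jurkat 4 h libraries lie apart. Stat2 was most like Dtx3l (r = 0.997) and Znfx1 (0.996), and Irf9 most like Oas2 (0.988) and Pml (0.985). For these 4 pairs r was 0.953, 0.951, 0.947 and 0.959 over the 24 libraries without Jurkat 4 h. Jak2 was most like Usp25 (0.998 over 30 and 0.939 over 24 libraries), and Ifngr1 most like Hepacam2 (0.998 and 0.948). Jak1 was most like Klf6 (0.996), with 0.656 over the 24 libraries, among which Jak1 spanned only 236 to 264 CPM. Ifnar1 was most like Mgat4a (0.974 and 0.939), Ifnar2 like Pecam1 (0.957 and 0.863), Ifngr2 like Tuba1a (0.986 and 0.868) and Tyk2 like Ap3d1 (0.981 and 0.864). These values are descriptions over libraries that share treatments, with no test.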

How the data were processed

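The authors deposited raw gene counts in 1 table, as whole numbers beside symbols, Entrez identifiers and mm10 intervals, per the file headers. The submitters' processing notes name STAR 2.5, Subread, featureCounts 1.5.0-p1 and DESeq2. Use of strand and handling of human or overlapping reads: not given in the sources used here. Per the labels' protocols, Trizol and column RNA with DNase digestion went into TruSeq RNA v2 libraries. Counts were tested with edgeR 4.0.16 (R 4.3.3): TMM scaling, filterByExpr by group, 1 mean for each of 10 groups over 30 libraries, quasi-likelihood F test (two-sided), Benjamini-Hochberg adjustment over 14808 genes and an FDR under 0.05. SE is the log2 fold change, unsigned, over the root of F. Exon lengths came from GENCODE M21 and promoters from RefSeq. All 9 genes are named. From each list, up to 3 genes with the smallest p in KO against WT on the average and up to 2 in Jurkat 4 h against untreated WT may be named, and for each of the 9 genes up to 2 with the highest r. Members and lists were chosen with earlier results of these data known. Alternatives were other scalings (DESeq2 size factors, total counts), no filter or 5 CPM in 3 libraries, a replicate block, compared groups alone, DESeq2 1.42.0, and each library left out. The procedure was tested on simulated data, for KO against WT after OVA 4 h. Of 50 genes changed 1.15-fold 11 were called, and of 50 changed 1.3-fold 29 were called. At 2-fold and 4-fold 39 and 47 of 50 were called, and 8 unchanged genes were called among 14808 run. A small difference can therefore go uncalled.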

Additional observations from a re-analysis of the deposited data

Results flagged for a closer look

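Responses to apoptotic Jurkat cells at 4 h differed between the genotypes for 2 of the 9 genes, by the test of the difference itself (edgeR). For Irf9 the KO response exceeded the WT response by 0.28 on the log2 scale (SE 0.0642, FDR 0.0111), and the difference was called under every alternative run. KO libraries lay below WT libraries before treatment (121, 126 and 119 CPM against 152, 158 and 158 CPM) and overlapped them afterwards. For Ifnar2 the difference was -0.21 (SE 0.0503, FDR 0.0155), and its call was lost under 3 of the alternatives. After treatment every KO library (232 to 249.9 CPM) lay below every WT library (282 to 309 CPM).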

How the results depend on the processing

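Of 19 calls for KO against WT in single conditions, 12 held under every alternative run, as did 7 of 8 on the average, 14 of 18 for Jurkat 4 h, 9 of 18 for the other treatments, 9 of 13 for Jurkat against OVA and 1 of 2 interactions. Tyk2 after Jurkat 4 h reversed with total counts, to -0.0453 in WT and -0.0504 in KO, through the shift of all genes given above. For Jurkat 30 min in KO, 0 calls became 1 with total counts, 2 with the 5 CPM filter and 1 with a replicate block within genotype. For KO against WT after Jurkat 30 min, 2 calls became 1 without a filter, 4 with the 5 CPM filter and 1 with the compared groups alone. For OVA 30 min, 1 call in KO became 0 without a filter and 0 with the compared groups alone, and 3 in WT became 1 with the compared groups alone. The Jurkat 4 h interaction went from 2 calls to 1 with total counts and 1 with the compared groups alone. The cause was not tested. That fit was not run for the average.

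Leaving out 1 library gave 1 to 3 calls for KO against WT untreated, 4 to 5 after OVA 30 min, 3 to 4 after OVA 4 h, 1 after Jurkat 30 min, 3 to 5 after Jurkat 4 h and 7 to 8 on the average. Treatment calls ranged from 1 to 3 in WT and 0 to 1 in KO for OVA 30 min, 4 to 6 and 3 to 4 for OVA 4 h, 3 to 4 and 0 to 1 for Jurkat 30 min, and were 9 in both for Jurkat 4 h. Jurkat against OVA gave 2 to 5 at 30 min and 9 at 4 h. Interactions gave 1 to 2 for Jurkat 4 h and 0 for the others. Tyk2 on the average was lost in many of these fits.

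The labels do not say whether replicate numbers pair libraries, and the main fit did not pair them. In same-numbered KO and WT libraries of 1 condition, deviations from the group mean correlated at -0.118 to 0.108 over 15 pairs, 1 of them over 0.1. Within a genotype, same-numbered libraries correlated at -0.0703 to 0.217 over 60 pairs, 6 of them over 0.1. Among the 3 libraries of the other group, the same number correlated best in 4 of the 15 and 26 of the 60 pairs. With the replicate block across genotypes 179 of 180 gene results kept their side of the threshold, and within genotype 177 of 180. SEs and intervals came from the edgeR fit and include the spread between these libraries, which may be technical, as well as counting error. Depth bears on counting error only. The 9 genes held 1140 counts or more in every library, the lowest being that of Irf9 in the shallowest.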
